A study of Mus musculus with 8 samples.

Results

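Mouse liver gained signal in 86 autosomal regions between embryonic day 17.5 (E17.5) and weaning at postnatal day 21 (P21), when methylated DNA was measured on CpG arrays. These were 0.627% of the 13713 autosomal regions measured. A region is a run of probes no more than 500 bp apart with at least 2 probes kept. Probes were kept if, on each array, 1 or both channels stood well above background and no outlier flag was set. A region was taken as higher at weaning where its mean log2 ratio of P21 over E17.5, centred on each array's median, was 0.4 or more on both replicate arrays. The members were thus chosen by their ratios, so their ratios and signals are given as descriptions, with no test.

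The animals were C57BL6/J mice, with fetal liver taken from pregnant females at E17.5 and liver from pups newly removed from their dams at P21. Each age had 2 biological replicates, and each replicate was read on 2 array designs, which makes 8 samples on 4 arrays and 2 arrays for any region. The fetal DNA was labelled with Cy3 and the weaning DNA with Cy5 throughout, without a dye swap, and therefore dye and age cannot be told apart. The labels do not say whether animals were pooled, nor their sex, and methylation signals hold no marker against which the tissue label could be checked. The number of arrays limits the precision of every value below. Ratios are given for each array or as a mean of the 2 arrays, and the SD of a mean is that of the 2 arrays.

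DNA methylation in mammals sits mainly on cytosines of CpG pairs, and at CpG-rich promoters it goes with a silent gene. In methylated CpG island amplification, enzymes that share the site CCCGGG but differ in their tolerance of methylation cut the DNA, and fragments between methylated sites are amplified and hybridised, so a brighter probe stands for a more methylated fragment. Fetal liver is a site of blood formation as well as an early metabolic organ, and the blood-forming cells leave it around birth. In bulk DNA, a change of methylation within cells and a change in the mixture of cells cannot be told apart.

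The promoters of 5 genes named by member regions are shown as examples, 3 with the cut site and 2 without it, because each gene carried one of the 13 largest gains. The windows are the 250 bases upstream of the annotated start in RefSeq (GRCm38.p6), given 5′ to 3′, with each CCCGGG in capitals. They lie at chr14:46390670-46390919 (minus strand), chr14:51984583-51984832 (plus strand), chr2:127335909-127336158 (plus strand), chr17:28207528-28207777 (plus strand) and chr2:32646345-32646594 (plus strand). No source used here names the genome build of the probes, so where they fall relative to these windows is not known.
Bmp4: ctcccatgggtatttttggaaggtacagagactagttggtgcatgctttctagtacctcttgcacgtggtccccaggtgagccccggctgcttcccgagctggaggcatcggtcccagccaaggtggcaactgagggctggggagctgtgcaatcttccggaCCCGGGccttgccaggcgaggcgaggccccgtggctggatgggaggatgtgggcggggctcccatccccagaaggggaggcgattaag
Arhgef40: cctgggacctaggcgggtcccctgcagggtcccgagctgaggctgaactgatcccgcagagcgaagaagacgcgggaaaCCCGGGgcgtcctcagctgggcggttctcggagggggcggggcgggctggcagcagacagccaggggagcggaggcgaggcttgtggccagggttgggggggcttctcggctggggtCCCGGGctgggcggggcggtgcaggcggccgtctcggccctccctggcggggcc
Dusp2: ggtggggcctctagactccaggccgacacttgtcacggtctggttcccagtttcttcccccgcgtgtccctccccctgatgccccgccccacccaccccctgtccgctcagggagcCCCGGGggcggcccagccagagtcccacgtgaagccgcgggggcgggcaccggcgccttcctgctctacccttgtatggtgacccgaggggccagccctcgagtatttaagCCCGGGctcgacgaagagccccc
Def6: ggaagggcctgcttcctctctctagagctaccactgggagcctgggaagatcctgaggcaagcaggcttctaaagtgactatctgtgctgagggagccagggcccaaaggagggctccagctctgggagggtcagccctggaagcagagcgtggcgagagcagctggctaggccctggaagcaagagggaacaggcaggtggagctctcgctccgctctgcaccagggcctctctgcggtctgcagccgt
Eng: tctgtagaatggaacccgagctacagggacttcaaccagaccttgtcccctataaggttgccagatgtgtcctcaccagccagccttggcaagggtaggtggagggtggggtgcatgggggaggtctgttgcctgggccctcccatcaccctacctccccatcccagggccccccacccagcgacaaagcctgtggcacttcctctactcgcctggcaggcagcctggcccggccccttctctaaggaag

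The Bmp4 window held 1 CCCGGG and 11 CpG pairs, the Arhgef40 window 2 and 22, and the Dusp2 window 2 and 19. No CCCGGG was found in the Def6 window, with 6 CpG pairs, or in the Eng window, with 4. RefSeq gave windows for 70 of the 92 gene names carried by member regions, 96 windows in all. CCCGGG, which reads the same on both strands, was present in 20 of the 96 (20.8%), against 16.3% of the 12782 windows of all genes measured on the autosomes. The median window of a member gene held 8.5 CpG pairs and 57% G and C, and the median over all measured genes was 13 CpG pairs and 58.4%.

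The gains ranged from a mean log2 ratio of 0.42 (Olfr464, an odorant receptor gene) to 4.04 (Nrbp2, a pseudokinase gene), with a median of 0.61. Few were large. The mean was 1 or more in 16 regions, of which 13 reached 1 on both arrays, and it was under 0.6 in 43. Replicate arrays differed by a median SD of 0.11, and the largest SD, 0.99, was that of Bmp4. In 56 of the 86 regions the second array gave the higher ratio, and over all regions the second array also had the wider spread, with an SD of 0.31 against 0.22 on the first. By the same rule turned round, 261 regions (1.9%) were lower at P21, and 56 regions (0.408%) passed 0.4 on both arrays with opposite signs.

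**Figure D1:**
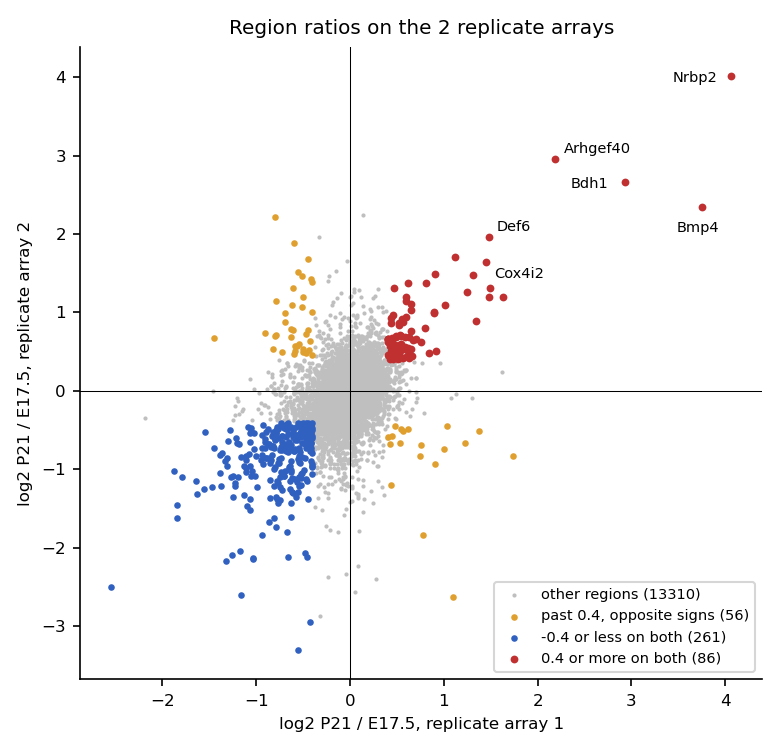
Mean log2 ratio of P21 over E17.5 of each of 13713 autosomal regions on replicate array 1 (x axis) and replicate array 2 (y axis), 1 point a region, coloured by the rule it meets. Most of the 86 regions higher at weaning lie close to the threshold of 0.4, and Nrbp2, Bmp4, Bdh1 and Arhgef40 lie far from it.

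The threshold cuts through a continuous range. Just inside it were Chrnb1, at 0.40 and 0.65 on the first and second array, Spatc1, at 0.40 and 0.66, and Ptpn6, at 0.40 and 0.66. Just outside were Chrna2, at 0.40 and 0.62, Dzip1l, at 0.40 and 0.53, and Mst1r, at 0.39 and 0.46; the lower value of the first 2 was under 0.4 before rounding.

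Genes of secreted signals and of the cells' response to them held some of the largest gains. Of 112 measured genes of TGF-beta, BMP, Wnt, Notch, Hedgehog and FGF signalling, 3 (2.68%) had a member region, against 0.643% of all 13069 named genes, and 2 had a region that was lower, against 2.08% of all named genes. The median over the list's 124 regions was 0.00, as over all regions. The 3 genes were Bmp4, Eng and Hes7.

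Bmp4 encodes a secreted bone morphogenetic protein that patterns many embryonic organs. Its member region (chr14:41470113-41470314, 2 probes) had a processed signal of 1155 at E17.5 and 15678 at P21 on the first array, and of 2525 and 13081 on the second; a region's signal here is the geometric mean over its kept probes. Both P21 signals were above both E17.5 signals, and the log2 ratios were 3.75 and 2.35, a mean of 3.05 ± 0.99 (SD, n = 2) or 8.28-fold. With probes joined over gaps of up to 1000 bp in place of 500 bp, the mean was 1.42. Eng encodes endoglin, a TGF-beta co-receptor of endothelial cells. In its region (chr2:32577854-32578514, 3 probes) the signal went from 8801 to 24559 on the first array and from 20146 to 46611 on the second, so that the ratio was alike, at 1.48 and 1.20, although the second array was brighter at both ages. Hes7, a repressor that times the segmentation of the embryo, had ratios of 1.34 and 0.90 (chr11:68845178-68846314, 5 probes), with signals of 2218 and 5674 on the first array and 3731 and 7058 on the second.

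Igf2, the imprinted fetal growth factor, stands on 3 lists and was the only member on each. These were 13 fetal liver and oncofetal genes (7.69%), 46 imprinted genes (2.17%) and 51 genes of insulin, growth factor and mTOR signalling (1.96%). The share of all named genes was 0.643%, and each list's share rests on this 1 gene. With normexp the lists had 0, 2 and 1 genes at 0.4 or more on both arrays, against 1.93% of all named genes. The Igf2 region (chr7:137074588-137075764, 3 kept probes of 6) was dim, with signals of 359 and 484 on the first array and 501 and 959 on the second. The ratios were 0.44 and 0.92. With normexp background correction, its mean ratio was 0.37 and it was no longer a member. Normexp subtracts the local background, models the background that remains, and here adds an offset of 50. The 14 regions of the fetal liver list had a median ratio of -0.20. The neuropeptide genes Nms and Pomc were also members, Nms (neuromedin S) at 0.55 and 0.92 and Pomc (pro-opiomelanocortin) at 0.48 and 0.58; with normexp their means were 0.02 and 0.23.

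Transcription factors gave a bright and a dim example. Onecut1 encodes HNF6, a factor of hepatocyte and bile duct development. Its region (chr9:75000146-75001762, 6 probes) had signals of 2375 and 6743 on the first array and 3181 and 8048 on the second, and the ratios were 1.49 and 1.31. With probes joined only over gaps of up to 200 bp, the region at its start had a mean of 2.35. Onecut1 was also the only member among 209 homeobox and patterning genes (0.478%, against 0.643% of all named genes). Pparg, the nuclear receptor of fat cell formation, stood apart from it: its region (3 kept probes of 8) had signals of only 148 and 225 on the first array and 116 and 160 on the second. The Pparg ratios of 0.61 and 0.44 became a mean of -0.19 with normexp, so its direction turned with the background correction.

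Genes of blood and immune cells were among the members. On the list of myeloid and lymphoid genes, 4 of 70 (5.71%) had a member region, against 0.643% of all named genes, 1 had a lower one, and the median over its 77 regions was 0.02. The 4 were Def6, P2rx7, Csf1r and Cebpe, with normexp means of 2.40, 1.82, 1.31 and 1.16; Csf1r fell under the threshold with normexp and loess together. No member was found among 29 erythroid genes, 2 of which had a lower region. With normexp, however, 6 of the 70 myeloid and lymphoid genes (8.57%) and 2 of the 29 erythroid genes (6.9%) had a region at 0.4 or more on both arrays, against 1.93% of all named genes. The share of blood cells in the samples was not measured, and its part in these ratios was not tested.

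Def6 encodes a guanine nucleotide exchange factor that acts in T cells. All 5 of its probes (chr17:26002882-26003730) were bright: the region's signal went from 32655 to 91786 on the first array and from 28054 to 111259 on the second, with ratios of 1.48 and 1.96. P2rx7, the ATP-gated channel of macrophages, was as bright, with signals of 21263 and 46123 on the first array and 36302 and 119187 on the second (chr5:121796070-121797091, 7 probes). Its ratios were 1.12 and 1.70, and the E17.5 signal of the second array lay below the P21 signal of the first. Csf1r, the receptor of the macrophage growth factor CSF1, differed most between the arrays of this group, at 0.47 and 1.31, with signals of 3501 and 4891 on the first array and 3208 and 8071 on the second. Cebpe, a transcription factor of granulocyte maturation, gave the same ratio on both arrays, 0.80 and 0.80, with signals of 4836 and 8474 on the first array and 5621 and 9939 on the second.

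Sorted by their known roles after the values were seen, 13 of the 86 regions named a gene best known from blood and immune cells, with mean ratios from 0.48 to 1.72 and a median of 0.71. The share of such genes among all measured regions was not determined. Beside the genes above, they were Dusp2, a phosphatase of MAP kinases in activated lymphocytes (0.91 and 1.49), Pstpip1, a cytoskeletal adaptor (0.89 and 1.00), Cnr2, a cannabinoid receptor (0.45 and 0.97), Lgals3 (galectin-3), Mr1, Dok2, Ptpn6 (the phosphatase SHP-1), Gimap1 and a probe pair named for H2-Ea and Btnl2. Of these 13, 9 kept 0.4 or more on both arrays with normexp, and the 4 that did not, Mr1, Ptpn6, Gimap1 and the H2-Ea region, were all dim, with signals from 120 (Gimap1 at E17.5, second array) to 744 (Ptpn6 at P21, second array).

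Genes of the cytoskeleton and its regulators ranged from large gains to the threshold. Arhgef40 encodes a guanine nucleotide exchange factor. Its region (chr14:47085098-47085318, 2 probes) had signals of 1339 and 6164 on the first array and 1883 and 14798 on the second. The ratios of 2.19 and 2.95 gave a mean of 2.57 ± 0.54 (SD, n = 2), or 5.94-fold, and with gaps of up to 1000 bp joined the mean was 1.74. Dock6, the gene of another exchange factor, was near the threshold at 0.41 and 0.62, and 1 of its 2 kept probes was at -0.09 and -0.06. Plec, which encodes the cytoskeletal linker plectin, was the only gene with 2 member regions, at 0.65 and 0.76 in one and 0.84 and 0.48 in the other. Further Plec regions that were not members had means of 0.00, 0.06, 0.11 and -0.62. The last of these lay 753 bp from the member at 0.84 and 0.48.

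Metabolic enzymes were represented by Bdh1 and Cox4i2 at high ratios and by several weaker regions. Bdh1 encodes the mitochondrial dehydrogenase that interconverts the ketone bodies acetoacetate and hydroxybutyrate. It was the only member among 81 genes of hepatocyte metabolism (1.23%), against 0.643% of all named genes. Of the 81, 7 had a lower region, against 2.08% of all named genes. With normexp the list's share was again 1.23%, below the 1.93% of all named genes. The Bdh1 region (chr16:30237227-30238457, 6 probes) went from 1408 to 10794 on the first array and from 2043 to 13194 on the second, at ratios of 2.93 and 2.67. The median of its probes in place of their mean gave 3.55. Cox4i2 encodes the lung-enriched isoform of a cytochrome c oxidase subunit. It was the only member among 169 genes of the respiratory chain and mitochondrial ribosome (0.592%), a share near the 0.643% of all named genes. With normexp the list's share was again 0.592%, below 1.93%. The Cox4i2 signals were 14137 and 38472 on the first array and 14920 and 47136 on the second, with ratios of 1.45 and 1.65 (chr2:152210515-152211700, 4 probes). In this region 1 probe held a saturated spot. Cs, the citrate synthase that opens the Krebs cycle, had ratios of 0.59 and 1.19, and Cmah, which hydroxylates sialic acid, 0.65 and 1.03. Got2, the mitochondrial aspartate aminotransferase, reached 0.52 and 0.47 at signals of 179 to 276 and had a mean of -0.09 with normexp.

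Of 536 measured genes of solute carriers, pumps and channels, 6 (1.12%) had a member region, against 0.643% of all named genes, and 17 had a lower one, where 272 of all 13069 did. With normexp the list's share was again 1.12%, below the 1.93% of all named genes. Beside P2rx7 these were Aqp6, Scn2b, Scn4b, Chrnb1 and Aqp9. Aqp6, an aquaporin of the kidney, had ratios of 1.31 and 1.48 at signals of 3457 and 8664 on the first array and 3742 and 10632 on the second (chr15:99657781-99658813, 5 probes), and a mean of 0.70 with normexp and loess together. Its first probe was not well above background at E17.5 on either array. Scn2b and Scn4b encode auxiliary subunits of voltage-gated sodium channels and lie 20968 bp apart on chromosome 9. Scn2b had ratios of 1.01 and 1.09, also with 1 such probe, and Scn4b of 0.59 and 1.15. The Scn2b mean of 1.05 became 0.43 as the median of its probes, and with gaps of up to 200 bp the region at its start had a mean of 2.43. Chrnb1, a subunit of the muscle acetylcholine receptor, and Aqp9, the glycerol channel of hepatocytes, were weak members, and with normexp each had a mean of 0.07.

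Other large gains lay in genes with no list in common. Nrbp2 had the highest ratio, 4.06 and 4.02 (chr15:76138436-76139542, 7 probes), as its signal went from 5608 to 94473 on the first array and from 8543 to 140729 on the second. Sppl2c, which encodes an intramembrane protease of the signal peptide peptidase family, had ratios of 1.25 and 1.26 on 2 probes, among the brightest on the arrays at 72255 and 173167 on the first array and 40825 and 99789 on the second; with normexp its mean was 1.89. Cdc23, a subunit of the anaphase-promoting complex, had ratios of 0.81 and 1.38, but its arrays had their largest gains on different probes. The highest probe of the first array was at 1.71 there and -0.30 on the second. The highest probe of the second array was at 2.82 there and 0.64 on the first. Of the 4 kept probes of Cdc23, 1 reached the threshold on both arrays. No member was found among the listed 26 stellate cell and fibroblast genes, 20 cholangiocyte genes, 233 zinc finger genes, 52 genes of DNA methylation and chromatin, or 44 cell cycle genes. The lists do not hold every gene of a kind, and Cdc23 was not on the cell cycle list. Sorted by role after the values were seen, 12 members were classed under transcription, chromatin and RNA. Of these 12, 5 kept their call with normexp and 3 under all 4 treatments of the signals. How common such genes are among all measured regions was not determined. At the 0.643% of all named genes, lists of these sizes would hold few members or none, and with normexp the zinc finger list had 2, the chromatin list 1 and the cell cycle list 1. The endothelial list had 1 member of 29, Eng.

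**Figure D2:**
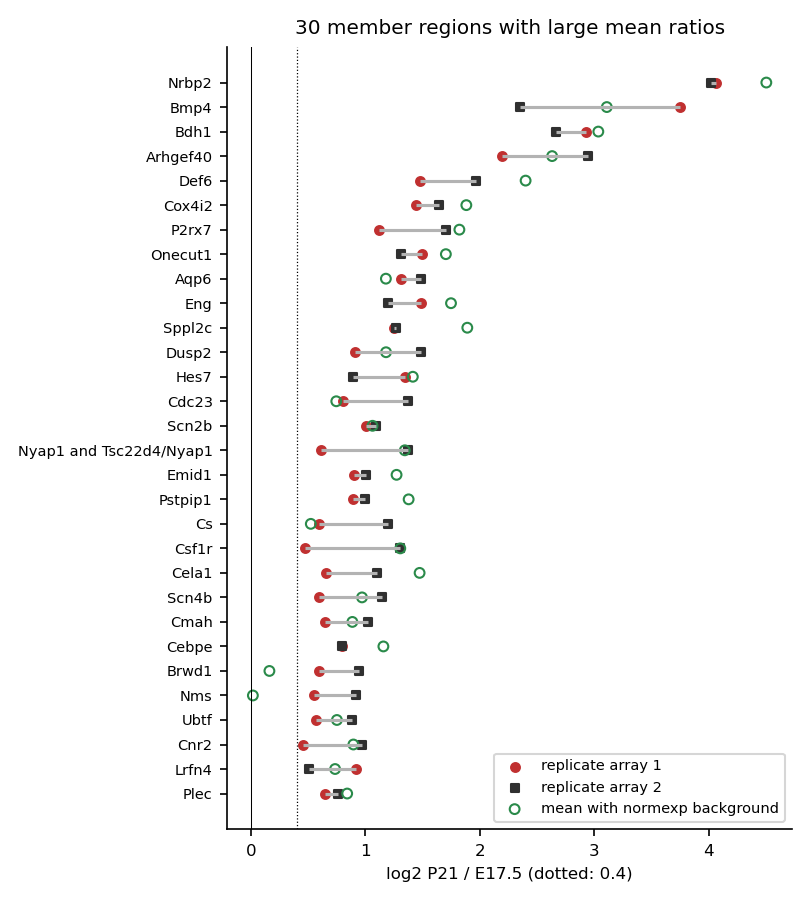
Log2 ratio of P21 over E17.5 (x axis) on each replicate array for 30 members with large means, with the mean under normexp background correction as open circles and the threshold of 0.4 as a dotted line. The 2 arrays are close for Nrbp2 (4.06 and 4.02) and far apart for Bmp4 (3.75 and 2.35), and the normexp means of Brwd1 (0.16) and Nms (0.02) fall under the threshold.

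**Figure D3:**
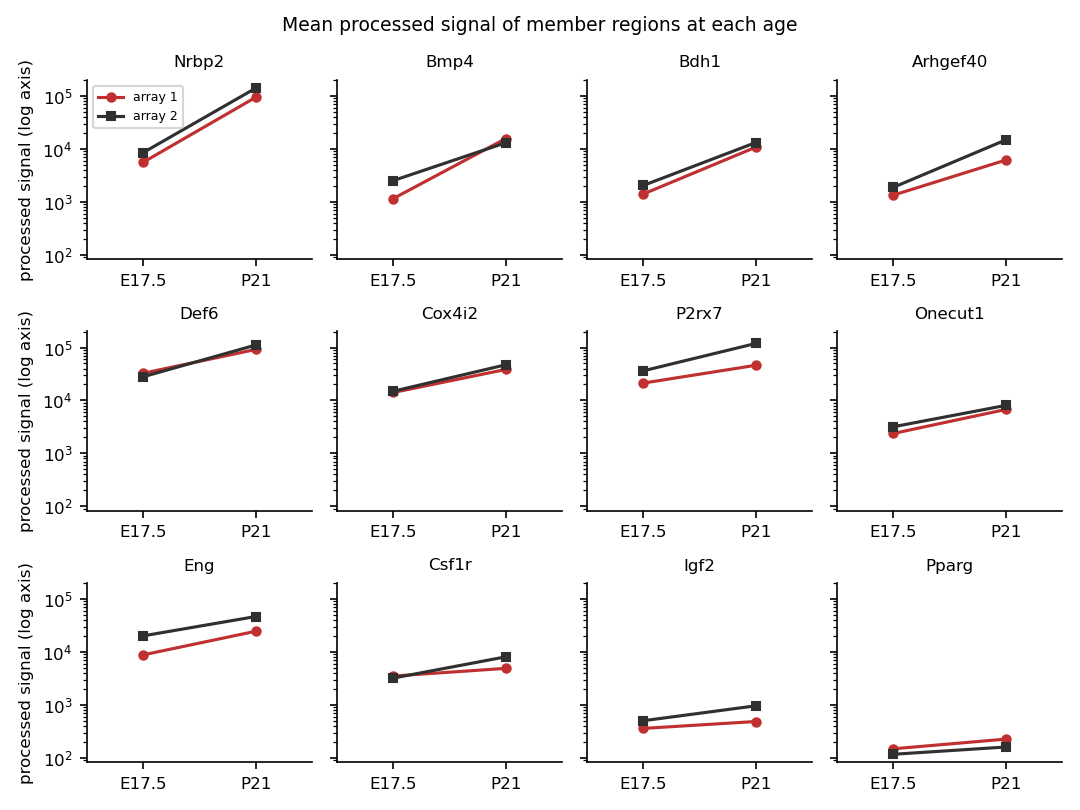
Processed signal of 12 member regions at E17.5 and P21 (log axis), 1 line per replicate array, each point the geometric mean of the region's kept probes before centring. Every line rises, from the brightest regions (Def6, 28054 to 111259 on the second array) to the dimmest (Pparg, 116 to 160 on the second array).

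In most members, the gain sat on part of the region. Of the 340 kept probes, 195 were at 0.4 or more on both arrays, and 277 (81.5%) were above 0 on both, against 32.7% of all kept probes. Members were chosen by the mean of these same probes, so a higher share is built into the rule. Among the 60 members with at least 3 kept probes, the probes at 0.4 or more covered the whole region in 8, and 37 held a probe with a mean under 0.1. In 42 of the 60 at least 2 probes reached 0.4 on both arrays, and in 39 of those 42 no other kept probe lay between them, over a median stretch of 567 bp (169 to 1131 bp). In 4 of the 39, Aqp9, Pparg and Klhl22 among them, left-out probes lay within the stretch, 6 in all, of which 5 were below 0 on both arrays; the other 35 had a median stretch of 517 bp.

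Onecut1 showed such an edge. Its first and second probe had ratios of 3.46 and 3.56 on the first array and 2.49 and 2.41 on the second, the next pair lay between 0.77 and 1.38, and the last probe was at 0.09 on both arrays. In Pstpip1 the edge showed on the first array, where 3 adjacent probes at 1.58 to 1.59 were followed by probes at 0.26 to 0.40, and less on the second, where those later probes were at 0.74 to 1.13. Cebpe fell from 1.27 and 1.46 at one probe to 0.03 and 0.00 at the next, and Dusp2 from 1.32 and 2.23 to -0.19 and -0.28. By contrast, all 7 probes of P2rx7 lay between 0.96 and 1.25 on the first array and between 1.59 and 1.90 on the second, and all 5 of Def6 were at 1.30 or more.

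**Figure D4:**
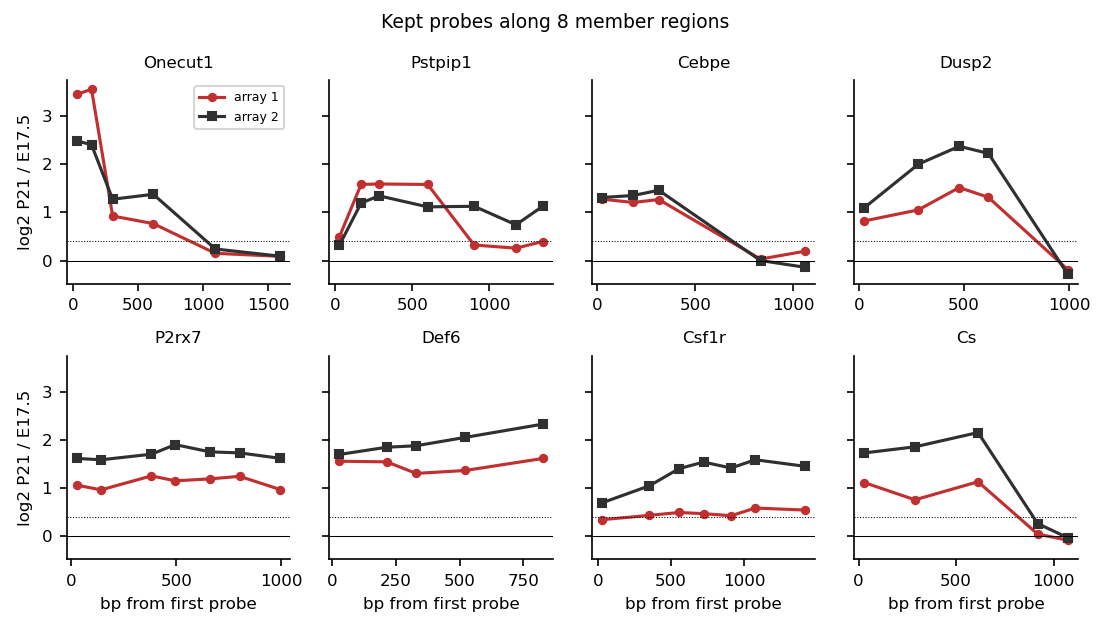
Log2 ratio of P21 over E17.5 (y axis) of the kept probes along 8 member regions, by distance in bp from the first probe, on each replicate array, with the threshold of 0.4 dotted. Onecut1, Cebpe, Dusp2 and Cs drop to near 0 within the region, Pstpip1 falls to 0.26 on the first array, and P2rx7, Def6 and Csf1r stay at 0.34 or more on every kept probe.

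Single probes carried many of the smaller members. A region kept only 2 probes in 26 members (30.2%), against 22.4% of all regions. Without each region's highest probe, 27 of the 60 members with at least 3 probes stayed at 0.4 or more on both arrays. Treh, the gene of trehalase, is an example: 1 of its 5 probes was at 1.55 and 2.00 and its region at 0.46 and 0.41. In Ptpn6, 1 of 4 probes was at 1.59 and 2.60 and the lowest at -0.19 and -0.10. The filter left out 67 probes in 33 members, 1 of them as an outlier and the rest as dim; 59 (88.1%) were below 0 on both arrays, as were 90.7% of dim probes on the autosomes.

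The 3 members longest by probe count gave the same picture. The Bcl6b region (chr11:69954531-69956437, 10 probes), named for a transcriptional repressor and for the miRNA gene Mir195a beside it, had ratios of 0.65 and 0.53, and 3 adjacent probes reached 0.4 on both arrays. RefSeq gives the mature miRNA below, with bases 2 to 8, the seed that pairs with targets, in capitals; it is shown because the region's probe names carry it.
mmu-miR-195a-5p: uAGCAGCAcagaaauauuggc
The second Plec region (chr15:76279763-76281718, 10 probes) had 6 adjacent probes at 0.4 or more, up to 1.85 and 1.01, and a lowest probe at -0.49 and -0.50. Cpsf4l, a gene related to an mRNA polyadenylation factor, had ratios of 0.59 and 0.69 over 9 probes, of which 6 reached 0.4 on both arrays. Cmah followed with 8 probes, 5 of them at 0.4 or more.

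Most gains did not extend to the neighbours. The nearest measured region on each side of a member was never itself a member (172 neighbours, at a median distance of 41422.5 bp). At the 0.627% of all regions, 172 regions would hold few members or none. Neighbours had a median ratio of -0.01, and 23.8% were above 0 on both arrays, against 32.2% of all regions. None of the 172 was at -0.4 or less on both arrays, against 1.9% of all regions. Of 29 regions within 2000 bp, counting those with 1 kept probe, 2 were at 0.4 or more on both arrays. Counted this way, 159 of all 17019 autosomal regions were, members included, which is a smaller share (0.934%). The 29 had a median ratio of 0.06, with 11 above 0 on both arrays and 8 below. One of the 2 was a single probe of Lrfn4, a gene of a synaptic adhesion protein, at 3.04 and 2.42. The Lrfn4 member region beside it was at 0.91 and 0.51. The other was a single probe of Eng at 0.83 and 0.67.

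The same held within genes. The 18 genes with a member and another measured region had 23 such other regions, with ratios from -0.62 to 0.50 and a median of -0.01; 7 were above 0 on both arrays and 7 below. Beside the Bmp4 member, a region 528 bp away was at -0.10 and -0.31 and another, 1940 bp away, at -0.00 and -0.08. Cmah came nearest to a second member, with a neighbouring region at 0.18 and 0.81.

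Members lay on all 19 autosomes. Chromosome 11 had the most, 12 of its 1208 regions (0.993%), followed by chromosome 9 with 10 of 835 (1.2%) and chromosomes 2, 14 and 15 with 7 each. The share was highest on chromosome 14 (1.42% of 493) and lowest on chromosome 4, where Cnr2 was the only member of 864 regions (0.116%). By array design, 58 members came from the second design, 0.872% of its 6655 regions, and 28 from the first, 0.397% of 7058. Regions on the second design also spread more widely, with SDs of 0.26 and 0.32 on its replicate arrays against 0.19 and 0.29 on the first, and the part of this spread in the count was not tested. Chromosome and design cannot be told apart outside chromosome 9, where the designs meet.

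Most members had no other member within 1000000 bp. Within 100000 bp of another member lay 7 (8.14%), against 7.66% of lower regions, and within 1000000 bp lay 14 (16.3%), against 41% of lower regions. Lower regions were about 3 times as many, so the shares are not on an equal footing at either distance. The densest group was on chromosome 15, where Nrbp2, both Plec regions and Spatc1, a spermatid centriole gene, lay within 179 kb. Between them, 8 measured regions were not members, at means from -0.62 to 0.11. On chromosome 2, St6galnac4, a sialyltransferase gene (0.63 and 0.47), lay 58759 bp from Eng.

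The median member was brighter than the median region, although many members were dim, and the largest gains lay in bright regions. The median E17.5 signal of members was 1127 on the first array and 974 on the second, against 827 and 635 over all regions, and at P21 it was 1614 and 1565 against 827 and 637. All regions were ranked by signal over both ages and split into 3 classes of 4571, bright, middle and dim. Of the members, 48 were bright, 7 middle and 31 dim, and 36 (41.9%) were in the top 10% of all regions. All 16 members with a mean of 1 or more were bright by this signal, which includes the P21 signal that the rule used. By E17.5 signal alone, Dusp2 and Cdc23 among them were in the middle class. Lower regions split into 142 bright, 56 middle and 63 dim. Classed at each age alone, 16 members moved to a brighter class from E17.5 to P21 and 70 stayed in theirs.

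Most members were already well above background at E17.5. On both arrays, 297 of 340 kept probes (87.4%) were well above background at E17.5 and 339 (99.7%) at P21, against 92.7% and 98.5% of all kept probes. Only 12 member probes were not well above background at E17.5 on either array, in 12 different members, and no member consisted of such probes alone. With each channel centred on its own median, both P21 signals exceeded both E17.5 signals in 69 of the 86 members, against 15.4% of all regions; membership itself rests on these signals.

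Whether a member kept its call under another background correction went with its signal class. With normexp, 253 regions (1.84%) reached 0.4 on both arrays, 45 of the 86 members among them. Those 45 were all among the 48 bright members. None of the 31 dim or 7 middle members was kept, and 12 of these had a normexp mean below 0. Normexp here started from mean spot signals without the dye normalization of the processed signals, and added an offset of 50. The part of each of these in the losses was not tested. With loess dye normalization, 75 of the members remained among 85 regions (0.62%). With normexp and loess together 31 regions were left (0.226%), all of them members; 30 of these passed under all 4 treatments of the signals, and the other was the dim member Ptpn6, at a mean of 0.52. Those 30 included 15 of the 16 with a mean of 1 or more; the other, Cdc23, was lost with normexp and loess together.

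**Figure D5:**
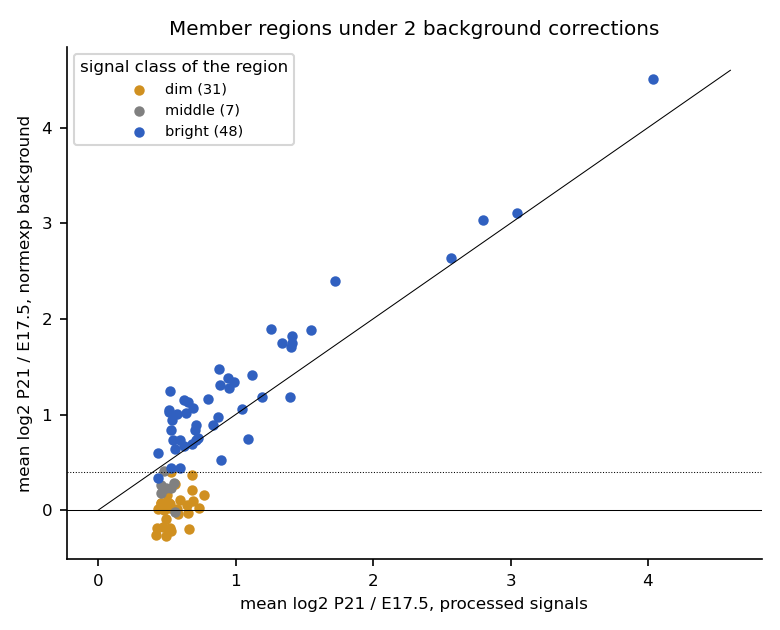
Mean log2 ratio of P21 over E17.5 of the 86 members from the processed signals (x axis) and after normexp background correction (y axis), coloured by signal class, with the line of equality. Dim members lie at or under 0.40 with normexp, and bright members, at 0.34 to 4.50, mostly lie above the line of equality.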

How the data were processed

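Methylated liver DNA of 8 samples was read on 4 Agilent 2-colour arrays. Per the file headers, the authors extracted spot intensity with Agilent Feature Extraction (versions 9.1.1.1 and 9.1.3.1) as background-subtracted, linearly dye-normalized processed signals. The log10 ratio that the authors deposited was used only to check direction, which agreed within 0.001 for 100% of kept probes well above background in both channels. The authors' deposited value table repeats the intensity values and served as an alternative.

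Here log2 of P21 over E17.5 was centred on the array median (-0.0021 to 0.0247 before centring). Of 83122 probes, 59516 were kept, and members held 340. Alternatives used limma 3.58.1 (normexp with an offset of 50, and loess) in R 4.3.3 with data.table (version 1.17.8); other steps used Python 3.11.15, pandas 2.3.3, numpy 2.4.6 and matplotlib 3.10.9. The region rule was tested on simulated data. No test was run on members, since the ratios chose them. Both ages of a replicate share an array, so the array is a block by construction.

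The members, 18 gene lists and 21 alternatives were chosen with earlier results of these data known. Genes were named by rule: the 15 largest means, list members (up to 4 a list), the 5 regions with most kept probes and 3 regions on each side of the threshold. 1 region and 2 lists are counted in the totals but not reported here. Others were named after their values were seen, as were 6 classes of gene role. Of the gene names, counted by region and so with Plec counted 2 times, 92 of 93 matched a RefSeq entry (GRCm38.p6). Of those, 91 were on the same chromosome and Tmsb10 was not. Older symbols had been updated for 19 names. Coordinates are those of the probe names.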

Additional observations from a re-analysis of the deposited data

How the results depend on the processing

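The count of 86 regions stayed within 1.5 times under loess (85), no centring (94), no filter on signal (102), both channels well above background (69), outlier-flagged probes kept (87), a gap of 1000 bp (75), joining kept probes only (87), at least 3 kept probes (60), the median of probes (70) and the series value table (85). The regions behind these counts were not all the same. Of the 86 members, 60 remained with no filter on signal, 60 with at least 3 kept probes and 61 with the median of probes. With both channels well above background 62 remained, and with a gap of 1000 bp 72. From 75 (loess) to 86 (no centring, outlier-flagged probes kept) remained under the others. The count was 253 with normexp, 31 with normexp and loess, 131 with a gap of 200 bp, 159 with single-probe regions allowed, 46, 170 and 13 at thresholds of 0.5, 0.3 and 1, and 35 without each region's highest probe, an alternative chosen after seeing the data. Leaving out replicate 1 or replicate 2 gave 586 and 220, since 1 array then decides. With no replicate block, that is, without the pairing of the 2 ages on an array, the count was 44, of which 39 were members. The causes of these shifts were not tested beyond what each setting removes or adds.

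Of the 29 regions named by rule, Pparg changed sign, to -0.19 with normexp. Dock6, with 2 kept probes, did so without its highest probe, at -0.09 and -0.06. No other of the 29 changed sign under the alternatives for which a value of the region was computed. Of all 86, 12 had a normexp mean below 0, Got2, Gimap1 and Olfr464 among them. Listed genes with a member numbered 20, and 40 with normexp; chromosomes with a member numbered 19, and 18 with normexp. The members' median centred log2 signal at P21 was 1.43, and 1.12 with normexp; at E17.5 it was 0.61 and 0.60. No dim or middle member kept 0.4 on both arrays with normexp, and 1 dim member, Ptpn6, did with normexp and loess together. Dye and age share the channels, and 2 arrays a region give no estimate of animal-to-animal spread beyond their difference.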
